A study of Mus musculus with 6 samples.

Results

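The genes described here carry out or start DNA replication: 45 listed genes that encode the MCM helicase, the proteins that license and fire origins, the replicative polymerases and their clamp, the enzymes that supply nucleotides, and the regulators of the step from G1 into S phase. The rule that picks them goes by gene name. All 45 had a probe on the array, and 41 were measured, out of 9348 genes tested in all. A gene counted as measured where at least 1 of its probes had a detection p-value under 0.05 on 3 or more of the 6 arrays, and its brightest such probe stood for it. All 41 measured genes were detected on all 6 arrays, against 86.6% of all genes tested. The other 4 were Gmnn, Pola1, Pole2 and Prim1. Gmnn was detected on 1 array, at intensities of 92.9 to 119.6 over the arrays, and the probes of Pola1, Pole2 and Prim1 were detected on none, so that geminin, the catalytic subunits of DNA polymerase alpha and primase, and a small subunit of DNA polymerase epsilon are not described by value.

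The arrays held total RNA of 6 cultures of 4T1, a mammary carcinoma line of BALB/c mice. In 3 cultures the cells carried a short hairpin RNA against the matrix metalloproteinase Mmp3 (4T1-MMP3lo, called Cl1 in the labels), and in the other 3 a scrambled control hairpin (4T1-SC, called NC). Cells of both groups were stably transfected with lipid reagent and kept under puromycin, and were grown in RPMI with 10% FBS. The design calls the cultures biological triplicates. Cl1 may name a clone, which the labels do not say, and each of the 3 date suffixes in the sample titles belongs to 1 array of each group, so that arrays with the same suffix were given the same replicate number. Whether the suffix is the day of culture, extraction or hybridisation is not stated.

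The depleted gene did not separate the groups. Mmp3 had log2 intensities of 10.64, 13.40 and 13.33 on the arrays labelled 4T1-MMP3lo and of 11.52, 12.98 and 13.04 on the 4T1-SC arrays, a log2 fold change of -0.06 (SE 0.74). It was low on both arrays of replicate 1, with a difference of replicate 1 from replicates 2 and 3 of -2.11 on the log2 scale (SE 0.30, adjusted p = 0.0485, limma). The arrays are therefore called by their labels throughout. The median intensity of an array lay between 96.6 and 112.6, and the share of its probes detected between 36.93% and 38.75%. Of the markers of mammary epithelium, Krt8, Krt18 and Cdh1 were detected on all 6 arrays and the probe of Epcam on none. Of markers of other cell types, none of 5 fibroblast genes passed the detection filter, 1 of 5 leukocyte genes did (Cd3e, on 4 arrays, with Ptprc, Itgam and Adgre1 on none) and 1 of 3 endothelial genes did (Kdr, on 3 arrays).

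In G1, origins are licensed when ORC with Cdc6 and Cdt1 loads the Mcm2 to Mcm7 ring onto DNA. At the entry into S phase the ring is turned into a running helicase by Mcm10, Cdc45 and the GINS complex, polymerase alpha with primase lays down primers, and polymerases delta and epsilon extend them while held by the PCNA clamp, which the RFC complex loads. Many of these genes are transcribed by E2F factors, which the retinoblastoma protein holds back until cyclin and kinase complexes, among them those of cyclin E, release them. Their mRNA levels rise in proliferating cells around the G1/S transition, so that in a bulk culture a different share of cells in S phase and a different level per cell cannot be told apart. The study also measured thymidine uptake in these cells. The arrays ask whether the mRNA of the replication genes differed.

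The promoters of these genes hold E2F words more often than those of all genes. RefSeq promoter windows (GRCm38.p6, from 250 bases before to 50 bases after the start) were on hand for 37 of the 45 genes. An E2F word (TTTCCCGC, TTTCGCGC, TTTGCCGC or TTTGGCGC, on either strand, overlapping matches taken as 1) stood in 12 of these 37 windows, or 32.4%, against 2.32% of the 27025 windows of all genes. The words stood in the windows of Mcm3, Mcm5, Mcm6, Mcm7, Cdc6, Cdt1, Orc1, Gins3, Pola1, Pold1, Pole2 and Rfc3. The 5-letter word CCAAT was in 59.5% of the windows, against 37.9% of all, and TTTGAA or TTCGAA, the words of the CHR element of mitotic genes, in 16.2% against 19.4%. For a list of 30 mitosis genes, 24 of them with a window, these shares were 4.17% for E2F words, 83.3% for CCAAT and 79.2% for the CHR words. E2F words were about as frequent in the windows of further genes of G1/S control (32.1%) and were in 24.3% of those of other replication genes. Windows are given in full for 5 genes, to set beside the array values below: Mcm3 because it was among the 4 genes with 2 matches, Orc1 as the gene with a match and the largest group difference, and Pola2, Ccne1 and Rfc5 because they had the largest group difference upward, the largest downward and the largest difference between date suffixes. Orc1 was added after its values were seen. Capitals mark E2F words, each window reads 5′ to 3′ on the strand of the gene, and the windows of Pola2, Ccne1 and Rfc5 hold none.
Mcm3, chr1:20820263-20820562, minus strand: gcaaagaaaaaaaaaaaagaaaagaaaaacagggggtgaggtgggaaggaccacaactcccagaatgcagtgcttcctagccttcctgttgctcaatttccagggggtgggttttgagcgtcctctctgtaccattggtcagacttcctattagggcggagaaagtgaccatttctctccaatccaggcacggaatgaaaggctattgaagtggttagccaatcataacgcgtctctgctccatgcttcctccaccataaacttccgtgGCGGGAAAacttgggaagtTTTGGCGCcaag
Orc1, chr4:108579204-108579503, plus strand: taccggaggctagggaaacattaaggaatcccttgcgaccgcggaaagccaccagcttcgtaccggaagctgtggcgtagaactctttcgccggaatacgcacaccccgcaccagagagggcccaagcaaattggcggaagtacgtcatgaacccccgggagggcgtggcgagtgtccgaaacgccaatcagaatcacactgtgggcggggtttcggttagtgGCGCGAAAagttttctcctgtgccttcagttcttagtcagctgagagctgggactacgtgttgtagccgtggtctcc
Pola2, chr19:5964157-5964456, minus strand: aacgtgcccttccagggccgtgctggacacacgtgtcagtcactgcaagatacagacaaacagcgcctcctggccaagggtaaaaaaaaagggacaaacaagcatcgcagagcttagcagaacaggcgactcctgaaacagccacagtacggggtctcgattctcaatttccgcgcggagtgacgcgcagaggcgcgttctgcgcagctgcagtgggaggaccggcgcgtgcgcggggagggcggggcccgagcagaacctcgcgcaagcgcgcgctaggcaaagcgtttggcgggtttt
Ccne1, chr7:38107441-38107740, minus strand: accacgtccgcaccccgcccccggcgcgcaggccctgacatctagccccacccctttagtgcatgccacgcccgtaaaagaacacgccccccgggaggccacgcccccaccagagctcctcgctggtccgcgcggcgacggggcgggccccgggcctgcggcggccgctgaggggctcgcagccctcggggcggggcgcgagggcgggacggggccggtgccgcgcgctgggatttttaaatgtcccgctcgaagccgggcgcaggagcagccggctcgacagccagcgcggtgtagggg
Rfc5, chr5:117388974-117389273, minus strand: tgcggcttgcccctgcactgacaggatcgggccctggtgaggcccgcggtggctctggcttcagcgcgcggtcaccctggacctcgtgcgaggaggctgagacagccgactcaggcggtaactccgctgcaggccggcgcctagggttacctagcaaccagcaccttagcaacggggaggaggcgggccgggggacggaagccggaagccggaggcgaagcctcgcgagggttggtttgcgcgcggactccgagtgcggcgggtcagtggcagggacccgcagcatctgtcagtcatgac
In Mcm3 the words began 20 and 39 bases after the start, and in Orc1 the word began at position -27 from it. A match is a description of the letters, not of a bound site, and the lack of one covers only the words searched.

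No replication gene changed between the groups at an adjusted p under 0.05 (limma, Benjamini-Hochberg over 9348 genes): 0 of 41 were higher and 0 of 41 lower in the arrays labelled 4T1-MMP3lo than in the 4T1-SC arrays, where 1.09% of all genes were called (0.599% higher, 0.492% lower). The lowest adjusted p was 0.377, for Cdc45. At an unadjusted p under 0.05, 2 genes were higher (Cdc45 and Pola2) and 0 lower, against 6.84% and 5.34% of all genes. The log2 fold changes lay between -0.53 (Ccne1) and 0.70 (Pola2), with a median of 0.17, where the median of all genes was 0.02. They were above 0 for 31 genes and below 0 for 10, against 52.3% above 0 and 47.7% below 0 among all genes. With the mean of all probes kept, 29 of the 41 genes were above 0, against 51.3% of all genes. The values of the groups did not overlap for 6 genes that were higher (Mcm4, Cdc45, Gins2, Pola2, Pold1 and E2f1) and 2 that were lower (Tyms and Tk1), against 9.62% and 8.07% of all genes, or 17.7% in all. The 95% interval of the log2 fold change stayed within -1 to 1 for 31 of the 41 genes, or 75.6%, much as for all genes (75.4%), and over the genes the bounds reached -1.09 and 1.55. For the other 10 genes the interval reached past -1 or 1. With the date suffix as a block the count was again 0, where the block called 2.08% of all genes.

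**Figure D1:**
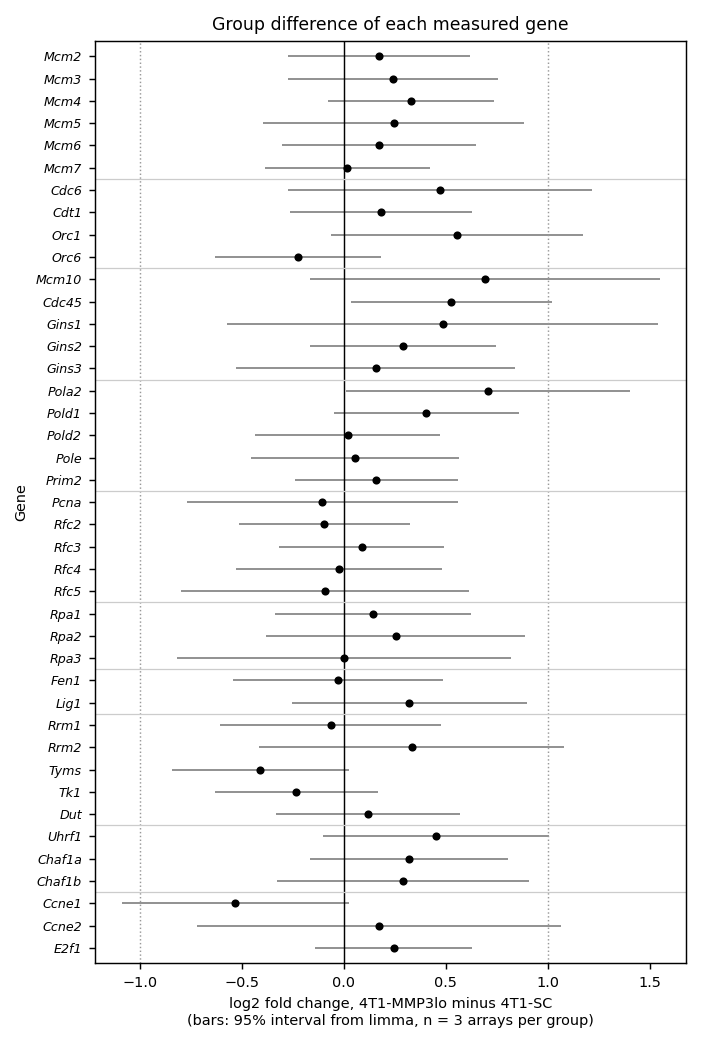
Log2 fold change of each measured gene, 4T1-MMP3lo minus 4T1-SC, with its 95% interval (limma, n = 3 arrays per group), ordered by role as in the text. Dotted lines mark -1 and 1; points run from -0.53 (Ccne1) to 0.70 (Pola2), 31 of 41 lie above 0, and 31 intervals stay inside the dotted lines.

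No gene of the helicase ring passed the test, and all 6 had a log2 fold change above 0, from 0.02 (Mcm7) to 0.33 (Mcm4), with a median of 0.21. Mcm4 had log2 intensities of 11.95, 12.12 and 12.16 on the arrays labelled 4T1-MMP3lo and of 11.89, 11.60 and 11.76 on the 4T1-SC arrays. The groups did not overlap, but the gap between the nearest arrays was small and the adjusted p was 0.527 (log2 fold change 0.33, SE 0.18). The other, dimmer probes of Mcm4 gave 0.27 and 0.75. Mcm2, Mcm3, Mcm5 and Mcm6 had fold changes of 0.17, 0.24, 0.24 and 0.17 on the log2 scale, and the other probes of Mcm6 and Mcm7 reached -0.27 and -0.19, so that the sign of these genes depended on the probe.

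Of the origin licensing genes, Orc1, the largest subunit of the origin recognition complex, stood highest in the comparison. Its log2 intensities were 6.07, 5.79 and 6.05 on the arrays labelled 4T1-MMP3lo and 5.97, 4.95 and 5.33 on the 4T1-SC arrays, a log2 fold change of 0.55 (SE 0.27, adjusted p = 0.469), which was 0.19 without background correction or in the deposited log2 table and 0.32 with an offset of 50. The 4T1-SC array of replicate 1 lay inside the range of the arrays labelled 4T1-MMP3lo and the other 2 lay below it. Cdc6, the ATPase that works with ORC in loading the helicase, followed with 8.87, 8.13 and 8.43 on the arrays labelled 4T1-MMP3lo and 8.66, 7.86 and 7.49 on the 4T1-SC arrays (log2 fold change 0.47, SE 0.32, adjusted p = 0.635). In each group its highest value was that of replicate 1, and the groups overlapped. Cdt1, the other loading factor, differed by 0.18 (SE 0.19). Orc6, the smallest subunit of the complex, had 10.69, 10.87 and 10.63 on the arrays labelled 4T1-MMP3lo and 10.93, 11.09 and 10.83 on the 4T1-SC arrays. It was lower in all 3 pairs, with a log2 fold change of -0.22 (SE 0.18, adjusted p = 0.691).

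The genes that turn the loaded ring into an active helicase had the highest median of the 10 roles, 0.48 over 5 genes, all above 0. For Cdc45, which joins the ring with GINS, log2 intensities were 9.44, 9.79 and 9.57 on the arrays labelled 4T1-MMP3lo and 9.26, 8.72 and 9.24 on the 4T1-SC arrays. These values did not overlap, and the log2 fold change was 0.53 (SE 0.21, 95% interval 0.03 to 1.02, unadjusted p = 0.0387 and adjusted p = 0.377, limma). Mcm10, a firing factor that is no part of the ring, had 10.44, 10.10 and 10.27 on the arrays labelled 4T1-MMP3lo and 10.43, 8.79 and 9.52 on the 4T1-SC arrays. Its replicate 1 values were nearly equal in the groups while the other 4T1-SC arrays lay below every array labelled 4T1-MMP3lo, and the log2 fold change was 0.69 (SE 0.37, adjusted p = 0.529). Gins1, a GINS subunit, spread most among the 4T1-SC arrays of the genes in this role, with 7.85, 7.98 and 7.97 on the arrays labelled 4T1-MMP3lo and 8.37, 6.27 and 7.70 on the 4T1-SC arrays (log2 fold change 0.48, SE 0.46, adjusted p = 0.754). Here the 4T1-SC arrays lay on either side of the other group, and without 4T1-SC replicate 2 the fold change was -0.11. Gins2 and Gins3 differed by 0.29 and 0.16, and the other probes of Gins2 by -0.27 and -0.22, so that its sign depended on the probe.

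Among the polymerases, Pola2, the regulatory subunit of DNA polymerase alpha, had the largest log2 fold change of the 41 genes in the main comparison. Its log2 intensities were 9.68, 9.27 and 9.30 on the arrays labelled 4T1-MMP3lo and 9.20, 8.04 and 8.89 on the 4T1-SC arrays, a log2 fold change of 0.70, or 1.63-fold (SE 0.30, 95% interval 0.01 to 1.40, unadjusted p = 0.0479, adjusted p = 0.407, limma). The groups did not overlap, by a margin of less than the spread within either. Without 4T1-SC replicate 2 its log2 fold change was 0.37, and without background correction or with an offset of 50 that of Mcm10 was larger (0.62 beside 0.59, and 0.661 beside 0.656). The catalytic subunit of polymerase delta, Pold1, did not overlap either and differed by 0.40 (SE 0.20, adjusted p = 0.471). Its partner Pold2 had 10.33, 10.52 and 10.33 on the arrays labelled 4T1-MMP3lo and 10.67, 10.16 and 10.30 on the 4T1-SC arrays, with a difference of 0.02 (SE 0.20, 95% interval -0.43 to 0.47). Pole, the catalytic subunit of polymerase epsilon, and Prim2, the large primase subunit, differed by 0.06 and 0.16.

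Among the clamp and its loader, 1 of 5 genes had a log2 fold change above 0, and the median was -0.09. Pcna, the sliding clamp, differed by -0.11 (SE 0.29). The 4 RFC genes lay between -0.10 and 0.09, and another probe of Rfc4 gave 0.19. Rfc2 had 10.75, 10.67 and 10.56 on the arrays labelled 4T1-MMP3lo and 10.92, 10.55 and 10.80 on the 4T1-SC arrays (log2 fold change -0.10, SE 0.18, 95% interval -0.51 to 0.32). Rfc5 had 9.54, 8.58 and 8.75 on the arrays labelled 4T1-MMP3lo and 9.52, 8.81 and 8.81 on the 4T1-SC arrays. It was high on both arrays of replicate 1, and the groups overlapped (log2 fold change -0.09, SE 0.31).

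Of the RPA subunits, which coat single-stranded DNA, Rpa1 had 11.95, 12.07 and 11.80 on the arrays labelled 4T1-MMP3lo and 12.13, 11.54 and 11.72 on the 4T1-SC arrays (log2 fold change 0.14, SE 0.21, adjusted p = 0.857). Rpa2 differed by 0.25, and another of its probes by -0.19. Rpa3 differed by 0.00 with an interval of -0.82 to 0.82, and its 4T1-SC array of replicate 2 stood at 11.26 while the others of that group stood at 9.77 and 10.06. Fen1, the flap nuclease that trims Okazaki fragments, had 10.89, 10.48 and 10.53 on the arrays labelled 4T1-MMP3lo and 11.01, 10.60 and 10.38 on the 4T1-SC arrays, with overlapping groups (log2 fold change -0.03, SE 0.22, adjusted p = 0.982). Lig1, the ligase that joins the fragments, differed by 0.32 (SE 0.25), and its 4 probes ran from -0.54 to 0.32.

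Of the 5 nucleotide supply genes, 3 had a log2 fold change below 0. Tyms and Tk1, the thymidylate synthase and thymidine kinase that provide dTMP, were the 2 genes whose values were lower without overlap. Tyms had 10.10, 10.43 and 10.25 on the arrays labelled 4T1-MMP3lo and 10.87, 10.60 and 10.53 on the 4T1-SC arrays (log2 fold change -0.41, SE 0.19, adjusted p = 0.439), and its 5 probes were all below 0, from -0.56 to -0.01. Tk1 had 11.14, 10.99 and 10.99 on the arrays labelled 4T1-MMP3lo and 11.42, 11.23 and 11.16 on the 4T1-SC arrays (log2 fold change -0.23, SE 0.17, adjusted p = 0.669). The nearest arrays of the groups were 10.43 and 10.53 for Tyms and 11.14 and 11.16 for Tk1, and the probes of Tk1 ran from -0.29 to 0.22. The ribonucleotide reductase subunits Rrm1 and Rrm2 differed by -0.06 and 0.33, and Dut, which clears dUTP, by 0.12. Other probes of Rrm1 and Dut gave 0.09 and -0.04.

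The chromatin genes lay together above 0. Uhrf1, which brings the maintenance DNA methyltransferase to new DNA, had 11.28, 10.88 and 10.94 on the arrays labelled 4T1-MMP3lo and 11.02, 10.28 and 10.44 on the 4T1-SC arrays (log2 fold change 0.45, SE 0.24, adjusted p = 0.521; another probe -0.22). It was higher in all 3 pairs, but the 4T1-SC array of replicate 1 reached into the other group. Chaf1a and Chaf1b, subunits of the histone chaperone CAF-1, differed by 0.32 and 0.29.

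Of the G1/S regulators, the cyclin E genes had fold changes of opposite sign. Ccne1 had the lowest log2 fold change of all 41 genes, -0.53 (SE 0.24, 95% interval -1.09 to 0.03, adjusted p = 0.436), with 5.81, 6.30 and 6.42 on the arrays labelled 4T1-MMP3lo and 6.69, 7.03 and 6.40 on the 4T1-SC arrays. The replicate 3 arrays of the groups were nearly equal, and the other pairs carried the difference. Ccne2 had 6.90, 7.16 and 7.02 on the arrays labelled 4T1-MMP3lo, all inside the range of the 4T1-SC arrays, which had 7.85, 6.22 and 6.48 (log2 fold change 0.17, SE 0.39, adjusted p = 0.918). E2f1, an activator of the pathway, had 10.31, 10.28 and 10.36 on the arrays labelled 4T1-MMP3lo and 10.19, 9.99 and 10.04 on the 4T1-SC arrays. These did not overlap, at a log2 fold change of 0.24 (SE 0.17, adjusted p = 0.634).

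**Figure D2:**
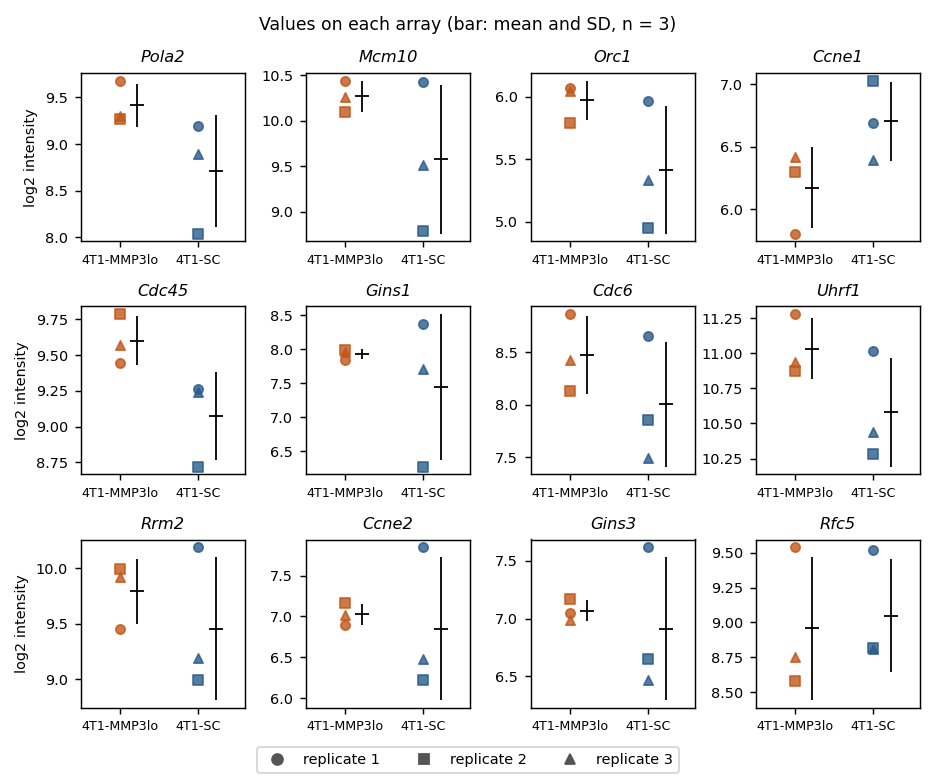
Log2 intensity (vertical axis) of 12 genes on every array, 4T1-MMP3lo at the left of each panel and 4T1-SC at the right, with replicates 1, 2 and 3 as circles, squares and triangles and the group mean and SD (n = 3) as a bar. In Mcm10, Rrm2, Ccne2 and Gins3 the 4T1-SC circle (10.43, 10.19, 7.85 and 7.62) stands apart from the other 2 arrays of that group, while the arrays labelled 4T1-MMP3lo lie closer together; axes differ between panels.

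Of the 12 genes with an E2F word in their window 10 were measured, with a median log2 fold change of 0.21 and a range of 0.02 to 0.55, all above 0. Of the 25 genes whose window held no such word, 24 were measured, with a median of 0.13 and a range of -0.53 to 0.70, 15 of them above 0. These are values of the brightest probes, and other probes of Mcm6 and Mcm7, both with a word, reached -0.27 and -0.19. No test was made between the genes with and without a word.

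The 4T1-SC cultures differed among themselves in these genes. The SD was larger in the 4T1-SC arrays than in the arrays labelled 4T1-MMP3lo for 36 of the 41 genes, or 87.8%, against 72.8% of all genes, with median SDs of 0.14 in the arrays labelled 4T1-MMP3lo and 0.32 in the 4T1-SC arrays (all genes 0.18 and 0.31). After the 6-array mean of each gene was taken away, the 41 genes had a median of 0.15, 0.06 and 0.04 log2 units on the arrays labelled 4T1-MMP3lo and 0.21, -0.32 and -0.15 on the 4T1-SC arrays. All 3 arrays labelled 4T1-MMP3lo thus lay between the replicate 1 array and the other 2 arrays of 4T1-SC. The lowest of the 6 values fell on 4T1-SC replicate 2 for 24 of the 41 genes, against 27.0% of all genes, and on 4T1-SC replicate 3 for 10. The highest fell on 4T1-SC replicate 1 for 16 and on the array labelled 4T1-MMP3lo replicate 1 for 14, against 23.9% and 16.9% of all genes. 4T1-SC replicate 2 lay below every array labelled 4T1-MMP3lo for 28 genes (68.3%, all genes 38.6%), and replicates 2 and 3 of 4T1-SC both did so for 23 (56.1%, all genes 24.6%).

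**Figure D3:**
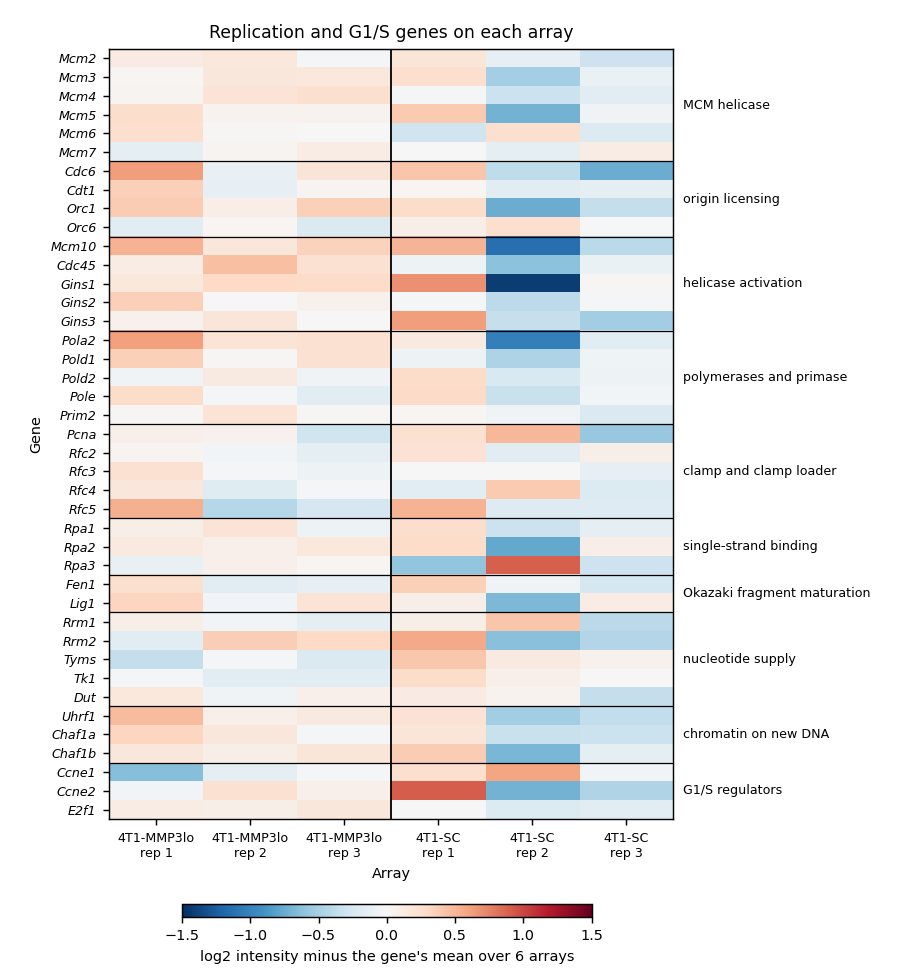
Log2 intensity of the 41 measured genes minus the mean of each gene over 6 arrays (colour scale, log2 units), with the arrays labelled 4T1-MMP3lo in the 3 columns at the left, the 4T1-SC arrays in the 3 at the right and genes grouped by role. The 4T1-SC replicate 2 column is the lowest for 24 genes and its median is -0.32, while 10 genes lie above their means there (Mcm6, Orc6, Pcna, Rfc4, Rpa3, Rrm1, Tyms, Tk1, Dut and Ccne1).

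The epithelial markers moved on the same arrays in the other direction. Their centred median over Krt8, Krt18 and Cdh1 was -0.02, -0.06 and -0.25 on the arrays labelled 4T1-MMP3lo and -0.15, 0.46 and 0.33 on the 4T1-SC arrays, so that 4T1-SC replicates 2 and 3 were high in them and low in replication genes. Of the fibroblast markers none was measured, and the leukocyte and endothelial markers had 1 measured gene each. The part of these differences in the replication genes was not tested.

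Most replication genes had higher values in replicate 1 than in the other replicates, without a call for any of them over all 6 arrays. In the F test of the suffix in a fit with group and replicate number, 0 of 41 genes passed an adjusted p under 0.05, against 0.171% of all genes, and 4 passed at an unadjusted p under 0.05 (Rfc5, Cdc6, Mcm10 and Pcna), against 13.4%. Replicate 1 exceeded the mean of replicates 2 and 3 for 36 of the 41 genes, against 52.2% of all genes, with a median difference of 0.23 (all genes 0.02). It was below for 5, against 47.8% of all genes. For this difference 0 genes were higher at an adjusted p under 0.05, against 0.0856% of all genes, and 6 were higher at an unadjusted p under 0.05, against 10.9%. The largest differences were 0.79 for Rfc5 (SE 0.18), 0.79 for Cdc6 (SE 0.22), 0.77 for Mcm10 (SE 0.28), 0.65 for Ccne2 (SE 0.37) and 0.63 for Gins1 (SE 0.41), at adjusted p-values of 0.0997, 0.134, 0.188, 0.340 and 0.409. Rfc5 and Cdc6 were high on replicate 1 of each group, whereas Ccne2 and Gins1 were so on the 4T1-SC array alone and their differences turned to -0.19 and -0.13 without it. The value of Rfc5 rested on its brightest probe, since its other 2 probes gave -0.03 each and the mean of its probes 0.25, and that of Mcm10 was 0.26 without 4T1-SC replicate 1. The lowest value, -0.53, was that of Rpa3. Replicate 1 was the highest of the arrays labelled 4T1-MMP3lo for 22 genes (53.7%, all genes 44%). In the other group, 4T1-SC replicates 2 and 3 lay below replicate 1 for 33 and 36 genes (80.5% and 87.8%, all genes 51.8% and 51.5%). Without the array labelled 4T1-MMP3lo replicate 1, replicate 1 is the 4T1-SC array alone and its spread is not measured. The differences of replicate 1 from replicates 2 and 3 were then 1.49 for Ccne2, 1.38 for Gins1 and 1.28 for Mcm10. They were 1.10 for Rrm2 and 1.06 for Gins3.

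The pair of replicate 1 also gave other group differences than the other pairs, again without a call. The median difference between the array labelled 4T1-MMP3lo and the 4T1-SC array was 0.00 in the pair of replicate 1, 0.31 in that of replicate 2 and 0.26 in that of replicate 3, where all genes had 0.01, 0.03 and 0.01. In the fit with an interaction of group and replicate 1, the term was below 0 for 32 of the 41 genes, with a median of -0.26 (all genes -0.01). Each group has 1 array of replicate 1, so the SE and p-value of this term hold no spread at replicate 1. 0 of 41 passed an adjusted p under 0.05, against 0.877% of all genes, and 3 passed at an unadjusted p under 0.05, against 16.3%. These 3, of which Rrm2 and Gins3 were singled out after their values were seen, had 4T1-SC replicate 1 as their highest array. Rrm2, the small subunit of ribonucleotide reductase, had 9.45, 9.99 and 9.92 on the arrays labelled 4T1-MMP3lo and 10.19, 8.99 and 9.19 on the 4T1-SC arrays. Its interaction was -1.60 (SE 0.29, adjusted p = 0.0817, limma). Ccne2, with the values above, had -1.69 (SE 0.31, adjusted p = 0.0820). Gins3 had 7.05, 7.17 and 6.99 on the arrays labelled 4T1-MMP3lo and 7.62, 6.65 and 6.47 on the 4T1-SC arrays, and an interaction of -1.09 (SE 0.30, adjusted p = 0.177). All 3 were lower in the array labelled 4T1-MMP3lo in the pair of replicate 1 and higher in the other 2 pairs. The sign of the median term rested on quantile normalization: when arrays were aligned by their medians instead it was 0.03 for the 41 genes and 0.23 for all genes, which leaves -0.20 relative to all genes.

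**Figure D4:**
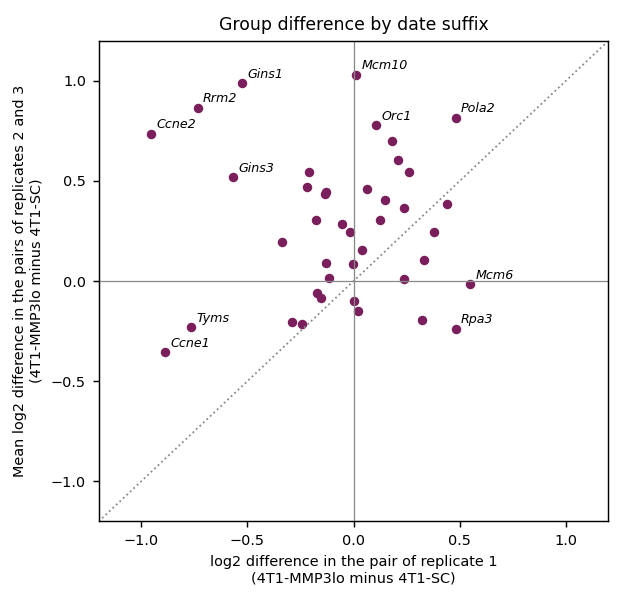
Log2 difference 4T1-MMP3lo minus 4T1-SC of each of the 41 genes in the pair of replicate 1 (horizontal axis) and its mean in the pairs of replicates 2 and 3 (vertical axis), with a dotted line of equal values. Ccne2, Rrm2, Gins1 and Gins3 lie at the upper left, below 0 in the first pair and above 0 in the others, and the interaction was below 0 for 32 genes, which lie above the line.

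The calls among the replication genes depended on single arrays. Without 4T1-SC replicate 1, Mcm10 (log2 fold change 1.12, adjusted p = 0.0229) and Orc1 (0.83, adjusted p = 0.0328) were higher in the arrays labelled 4T1-MMP3lo, and without replicate 1 of either group Rrm2 (0.87, adjusted p = 0.0224) and Ccne2 (0.74, adjusted p = 0.0461) were. These are 4.88% of the 41 genes in each case, against 10.7% and 10.8% of all genes called in the same fits. Without 4T1-SC replicate 2, Mcm10 was at 0.30 and Orc1 at 0.32. No replication gene was called between the groups when any of the other 5 arrays was left out. Limma's array weights were 0.45, 1.52 and 5.05 on the arrays labelled 4T1-MMP3lo and 0.17, 0.38 and 4.32 on the 4T1-SC arrays. The replicate 3 array thus carried most of the weight in each group. With these weights 13 of the 41 genes were higher, Orc1, Cdc6, Rrm2 and Mcm10 at the lowest adjusted p-values. This is 31.7% of them, against 33.2% of all genes called (3103). For the interaction, leaving out replicate 2 or 3 of 4T1-SC keeps a single 4T1-SC array outside replicate 1. The spread of the 4T1-SC arrays is then not measured, so no count of calls is given for these fits. The interaction of Rrm2 and of Ccne2 stayed below 0 in both.

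Other genes of the same pathways also held no call between the groups, where 1.09% of all genes were called. A count of 0 in lists of this size lies near that share. The medians of these lists lay below the 0.17 of the 41 genes. Of 45 further replication genes, 37 were measured and 0 rose or fell, with a median log2 fold change of 0.07. The largest were Recql4, a RecQ helicase (0.73), Mcmbp, an MCM binding protein (0.57), and Rnaseh2b, a subunit of ribonuclease H2 (-0.56). Of 36 genes of G1/S control outside the list, 25 were measured and 0 rose or fell, with a median of 0.05. Here Ccnd2, a cyclin D, stood at 0.93 (SE 0.36, adjusted p = 0.339), E2f8, a repressor E2F, at 0.82 and Rb1, the retinoblastoma gene, at 0.51. Of 30 mitosis genes 22 were measured and 0 rose or fell, with a median of 0.09. Their largest differences were -0.45 for Cdk1, the mitotic kinase, 0.39 for Plk1, the polo kinase, and 0.37 for Anln, which encodes anillin. Beside the replication genes, the median of replicate 1 minus replicates 2 and 3 was 0.29 for the other replication genes, 0.18 for G1/S control and 0.38 for mitosis. In these lists 1 gene passed in that comparison: Pold4, the smallest subunit of polymerase delta, differed by -1.34 between replicate 1 and replicates 2 and 3 (adjusted p = 0.0486, limma), against 0.396% of all genes lower there.

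**Figure D5:**
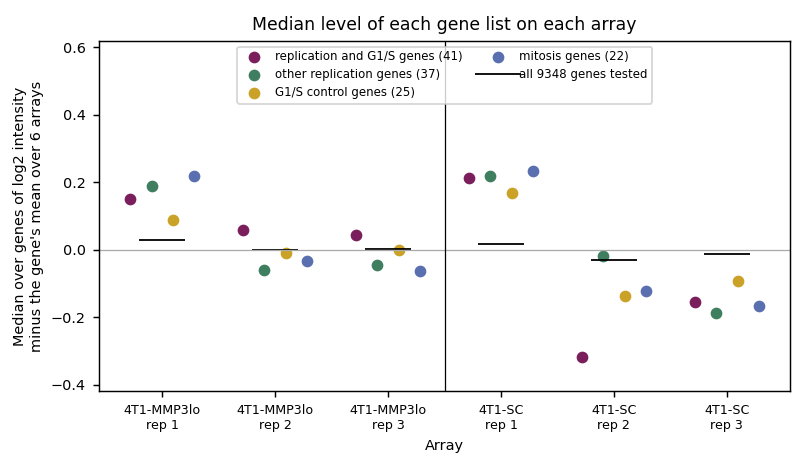
Median over genes of log2 intensity minus each gene's mean over 6 arrays (vertical axis, log2 units), for each array, with 4T1-MMP3lo at the left and 4T1-SC at the right; points are gene lists and short lines are all 9348 genes. All 4 lists are above 0 on both arrays of replicate 1, and on 4T1-SC replicate 2 the replication and G1/S genes stand lowest, at -0.32, against -0.02 for the other replication genes and -0.12 for the mitosis genes.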

How the data were processed

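Total RNA of 6 4T1 cultures, 3 in each group, was biotin-labelled and run on MouseWG-6 bead arrays. The authors deposited the intensity of each probe on a linear scale, with no normalization visible in it, and beside it a detection p-value. The authors also deposited a table of log2 values, which lay within 0.00627 of the quantile-normalized log2 intensities without background correction. It was used as an alternative. The software for either is not given in the sources used here.

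The intensities were background corrected, quantile normalized and put on the log2 scale with neqc of limma 3.58.1 in R 4.3.3, with an offset of 16 added before the logarithm, so that differences of dim genes are understated. Of 45281 probes, 34885 had 1 gene symbol, 18 several and 10378 none in the platform annotation, and 16969 were detected at p under 0.05 on at least 3 arrays. The brightest stood for each gene. Groups were compared with lmFit and eBayes over 9348 genes with Benjamini-Hochberg adjustment, and a gene "rose" or "fell" at an adjusted p under 0.05. The difference between date suffixes was tested in a fit with group and replicate number, and an interaction term compared the group difference at replicate 1 with that at replicates 2 and 3. Steps were run on simulated data whose noise was independent between arrays, unlike the correlated arrays of 1 suffix described below. The number of arrays, 3 a group, limits the precision.

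The pairing comes from the date suffix that 1 array of each group shares. Across genes, the deviations from the group means of arrays with 1 number correlated at 0.442, 0.212 and 0.283, those of replicates 2 and 3 crossed at 0.235 and 0.309, and all other pairs were below 0. Genes, lists and tests were chosen with earlier results of these data known. All array values are given for the 8 genes with the largest group difference, the 5 with the largest difference of replicate 1 and the brightest of each role, and of other lists the 3 genes with the largest group difference. Gene lists other than the 45 genes were written from textbook knowledge. Promoter windows are from RefSeq, and the first window was used for 5 genes with more than 1. Plots used Python 3.11.15 and matplotlib 3.10.9. The alternatives were no background correction, the deposited log2 table, an offset of 50, a median shift, no filter or detection on all 6 arrays, the mean of all probes kept, a replicate block, array weights, the methods' t-test and leaving out each array. Replicates 2 and 3 alone were added after seeing the data.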

Additional observations from a re-analysis of the deposited data

How the results depend on the processing

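The count of replication genes called between groups was 0 of 41 in the main comparison, with the replicate block, in the methods' t-test after adjustment and in the scaling, filter and probe alternatives (45 genes without a filter). It was 13 with array weights, where the replicate 3 array carried most of the weight in each group. It was 2 with replicates 2 and 3 alone, an alternative added after the data were seen. Over the fits that left out 1 array it was 0 to 2. Their median log2 fold change was 0.10 to 0.31 in those fits, lowest without 4T1-SC replicate 3 and highest without 4T1-SC replicate 1. Over all genes, 102 were called in the main comparison, 194 with the replicate block, 12 without background correction or in the deposited table, 38 with an offset of 50, 50 with detection on all 6 arrays, 30 without a filter, 3103 with array weights, 1012 with replicates 2 and 3 alone, 0 in the methods' t-test (1054 before adjustment), and 0 to 1000 when 1 array was left out, where leaving out 4T1-SC replicates 1, 2 and 3 in turn gave 1000, 1 and 0 genes and leaving out replicate 2 or 3 labelled 4T1-MMP3lo gave 0. The block changed no call among the replication genes. The cause of these differences was not tested. For Mmp3 the log2 fold change was 0.19 with array weights, 0.36 with replicates 2 and 3 alone and -0.55 to 0.85 when 1 array was left out, above 0 without the replicate 1 labelled 4T1-MMP3lo or without 4T1-SC replicate 2 (0.18) or 3 (0.21).

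The difference of replicate 1 from replicates 2 and 3 called 0 replication genes in each fit that kept both replicate 1 arrays. Without either of them, replicate 1 is a single array and its spread is not measured, so no count is given for this difference. In the F test of the date suffix, no replication gene was called under any alternative. Over all genes 16 were called, 0 without background correction, in the deposited table or without a filter, 9 after a median shift and 0 to 266 when 1 array was left out, highest without replicate 1 labelled 4T1-MMP3lo. The median difference of replicate 1 was 0.15 to 0.37 in those fits. The interaction called 0 to 7 replication genes when replicate 2 or 3 of a group was left out, 7 of them with 4T1-SC replicate 3 left out and 2 with replicate 2 left out, and its median was -0.26 to -0.25 there. After a median shift it was 0.034, beside 0.23 for all genes. The interaction could not be fitted without a replicate 1 array. 4T1-SC replicate 2 held the lowest value of 24 genes, and of 19 after a median shift, beside 17.9% of all genes. With 1 array left out, the replicate 1 difference was -0.19 to 1.49 for Ccne2 and -0.13 to 1.38 for Gins1, lowest without 4T1-SC replicate 1, and the log2 fold change of Gins1 was -0.11 to 0.94, lowest without 4T1-SC replicate 2. When an array is left out, the normalization and the genes tested are those of all 6 arrays. Without background correction the log2 fold changes of Orc1, Ccne1 and Gins1 were 0.19, -0.26 and 0.28, and with the mean of all probes that of Uhrf1 was 0.11. With array weights that of Ccne1 was -0.11.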
